A study of Mus musculus with 27 samples.

Results

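The comparison described here is the addition of the T-box factor Tbx5 to cells that already received Gata4 and Mef2c. Its members are 6 ATAC-seq libraries, 3 from cells given Gata4, Mef2c and Tbx5 (GMT) and 3 from cells given Gata4 and Mef2c (GM), out of 27 labelled samples in the series. They were selected by the labels, and all regions of the count table were compared between them. The cells of both groups were an immortalised line of neonatal cardiac fibroblasts from Cd-1 mice, kept dividing by large T antigen and carrying an alpha-MHC-GFP reporter. Factors were delivered by retrovirus, and both groups were grown with the Tgfβ inhibitor sb431542 and the Wnt inhibitor xav939, so that Tbx5 was the labelled difference. Chromatin was taken on day 2 without sorting, so each library mixes cells that took up every virus with cells that did not. The other groups used here were Gata4 alone (G), Mef2c alone (M), Tbx5 alone (T), Gata4 with Tbx5 (GT) and Mef2c with Tbx5 (MT), all with the inhibitors. A dsRed control, infected with a virus for a red fluorescent protein, had no inhibitors. The regions carry mm9 coordinates and no gene names, so neither the transgenes nor fibroblast or cardiomyocyte marker genes could be looked up as a check of the labels.

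ATAC-seq reads DNA that a transposase can reach, and a region with more counts is more accessible. Gata4 is a zinc-finger protein known for binding sites in closed chromatin, Mef2c is a MADS-box protein of muscle gene enhancers, and Tbx5 is a T-box protein needed for heart chamber and limb formation. The 3 proteins bind many enhancers together in the heart and contact each other, and together they drive fibroblasts towards a cardiomyocyte-like state.

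Of 30815 regions in the table, 20494 had enough counts to be tested, and their width ran from 201 to 1174 bp. Total counts were 1558476, 407184 and 647066 in GM replicates 1 to 3 and 241394, 817519 and 1059307 in GMT replicates 1 to 3. The shallowest library of each group stood apart from its own group. GMT replicate 1 had a mean Spearman correlation across regions of 0.707 with the other GMT libraries, 0.772 with MT and 0.75 with the control, whereas GMT replicates 2 and 3 correlated with each other at 0.922. GM replicate 2 had 0.805 with the other GM libraries and 0.815 with the control. In the GT group used below, replicate 1 had a share of counts in Tbx5-opened regions like that of the G libraries (values below). Most counts and list medians that rest on this library are given with and without it. GT means, fold changes and interactions at single regions include it. What separates the replicates, which the labels call biological, is not stated. The p-values measure the spread between libraries of a group, estimated over all 8 groups together.

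Adding Tbx5 to Gata4 and Mef2c changed accessibility mostly upwards. By edgeR's quasi-likelihood test with Benjamini-Hochberg adjustment (adjusted p below 0.05), 2467 regions rose in GMT against GM, which is 12% of those tested, and 348 fell, which is 1.7%. The median log2 fold change was 2.14 among the rises and -1.68 among the falls, against -0.05 over all regions tested. Every GMT library lay above every GM library in 2026 of the rises (82.1%), where 15.9% of all regions tested had that order. Every GMT library lay below every GM library in 309 of the falls (88.8%), where 11.6% of all regions did. In unsorted cells, a larger share of cells that responded and a larger change in each cell cannot be told apart.

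**Figure D1:**
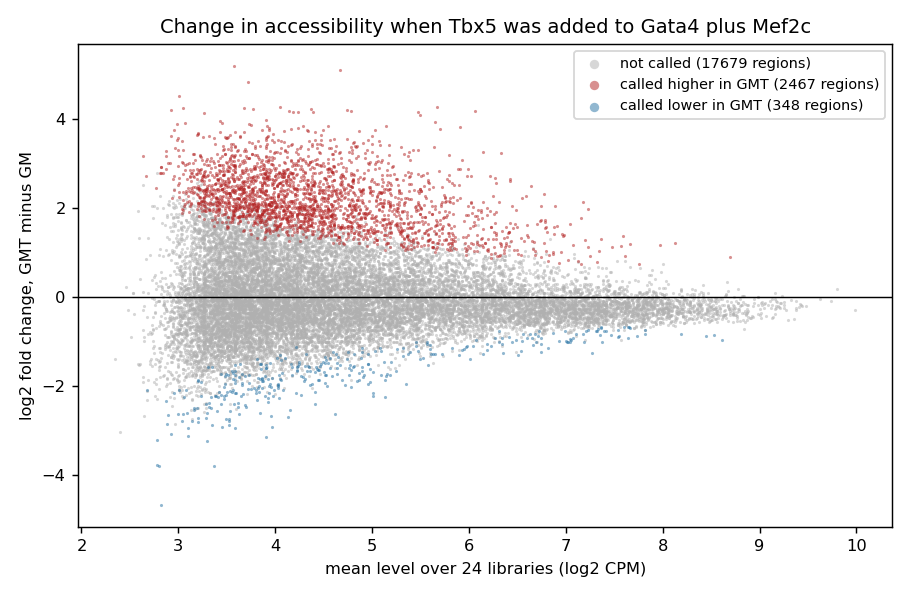
Each point is 1 of 20494 regions, with its mean level over 24 libraries in log2 CPM (counts scaled to library size) on the x axis and the log2 fold change of GMT over GM on the y axis. Red points are the 2467 regions called higher in GMT and blue points the 348 called lower; grey points were not called, and at the right, where levels are highest, the cloud lies below 0.

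The rises lay mainly at regions of low to middle level. Sorted by mean level into 4 classes of equal size, 11.1%, 15.9%, 15.3% and 5.89% of the regions rose from the lowest class to the highest. Falls were spread evenly, at 1.8%, 1.6%, 1.68% and 1.72%. Their size was not even, with a median log2 fold change of -2.24 in the lowest class and -0.96 in the highest. Over all regions of the highest class, called and not called together, the median log2 fold change was -0.19. When each library was scaled along the level of the regions (loess offsets), 1952 regions rose and 584 fell, so the share of rises among the called regions was 77% in place of 87.6%. Of the 2467 rises 1924 were also called under that scaling, and of the 348 falls 305, but only 48 of the 88 falls in the highest class.

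The number of called regions depended on single libraries. There were 1155 rises and 63 falls without GMT replicate 2, and 1524 and 115 without GMT replicate 3. Leaving out GM replicate 1 gave 1440 and 270, and leaving out GM replicate 3 gave 1263 and 80. Leaving out GMT replicate 1, the shallowest library, gave 2805 rises and 693 falls. Without the shallowest library of each group, a setting chosen after the data were examined, there were 2383 rises and 400 falls. With only the GM and GMT libraries in the fit there were 1671 rises and 299 falls. GMT replicate 1 was the lowest of the GMT libraries in 1943 of the 2467 rises (78.8%) and the highest in 161 of the 348 falls (46.3%). The same shares over all regions tested were not computed.

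Regions are named below by rank. They were ordered by log2 fold change after leaving out called regions below the median level and those where GM and GMT libraries overlapped. The 12 top-ranked rises had log2 fold changes of 3.77 to 5.08, or 13.6-fold to 33.8-fold. The region with the highest rank, chr2:18752751-18752960, was nearly closed in GM, with 1.97, 0 and 3.16 CPM in replicates 1 to 3. In GMT it stood at 72.2, 81.3 and 60.5 CPM (log2 fold change 5.08 ± 0.76 SE, edgeR adjusted p = 0.000131). These GM levels come from 3, 0 and 2 counts, so the fitted size of that fold change depends on the prior count, while all 3 GMT libraries (18, 63 and 61 counts) lay far above all GM libraries.

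The second rise, chr15:86062425-86062908, went from 14.5, 7.45 and 14.2 CPM in GM to 112, 340 and 275 CPM in GMT (log2 fold change 4.26 ± 0.57, edgeR adjusted p = 4.61e-05). GMT replicate 1 was well below the other GMT libraries there and still above all GM libraries. The third, chr18:46786694-46787174, had 9.86, 4.96 and 6.32 CPM in GM and 96.3, 166 and 168 CPM in GMT. The region ranked 5, chr17:73371686-73372265, reached the highest levels outside GMT, with 439 ± 109 CPM (SD, n = 3) in T and 349 ± 21.8 CPM in MT. Its levels were 11.2, 17.4 and 22.1 CPM in GM and 241, 342 and 275 CPM in GMT (log2 fold change 4.17 ± 0.56, edgeR adjusted p = 4.61e-05). G, M and the control stood at 14.6 ± 6.15, 12 ± 4.17 and 19.6 ± 10.1 CPM, so the groups without Tbx5 all had low means, and the lowest mean with Tbx5 was 172 ± 149 CPM in GT.

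The widest of the named rises was chr15:68243764-68244614, ranked 11, with 23, 14.9 and 39.5 CPM in GM and 120, 405 and 544 CPM in GMT. Its mean of 357 ± 216 CPM in GMT was above the 170 ± 52.2 CPM of T, but the GMT libraries were widely spread and that difference was not tested. The remaining 7 named rises were chr16:24367243-24367686, chr6:120124582-120125134, chr5:124588947-124589509, chr2:85078317-85078686, chr2:49253129-49253497, chr12:9244394-9244756 and chr4:107634672-107634940. Over the 12, mean levels ran from 1.71 to 25.8 CPM in GM and from 70.7 to 357 CPM in GMT, and adjusted p-values from 4.61e-05 to 0.000382. GMT replicate 1 was the lowest GMT library in 10 of the 12. All 12 were also called higher in T than in the control, as were 14.5% of all regions. None was called higher in G or in M. The naming rule asked for a mean level over all 24 libraries at or above the median. With low levels in GM, that limit favours regions also high in T, GT or MT, so these counts partly follow from the rule.

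**Figure D2:**
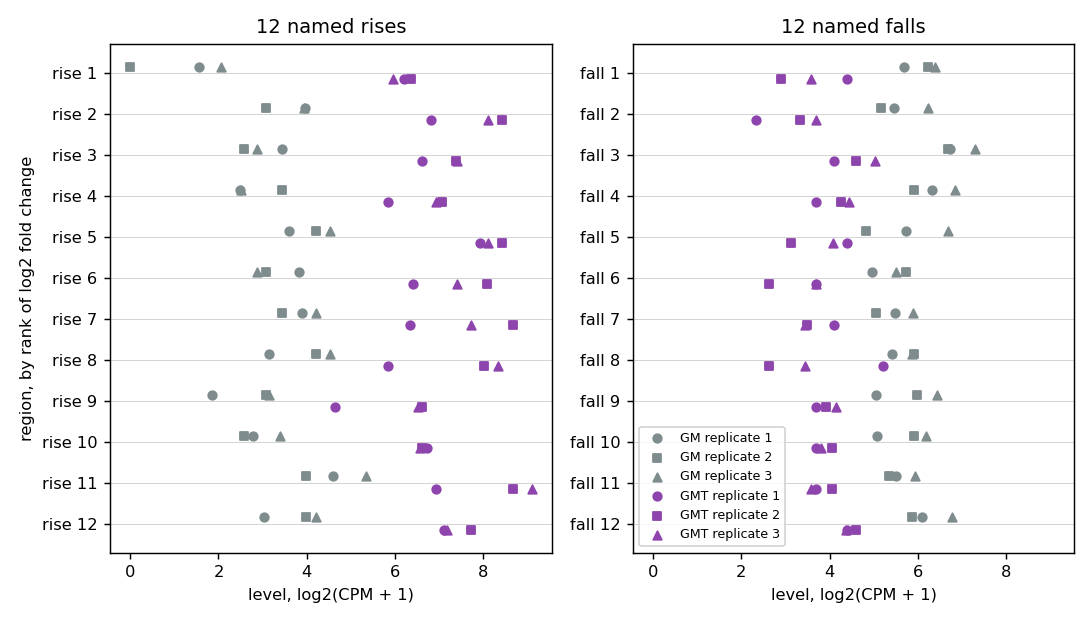
Each row is 1 named region by rank, rises on the left and falls on the right, and the x axis is its level as log2 of CPM plus 1. Grey symbols are the 3 GM libraries and purple symbols the 3 GMT libraries; in all 24 rows the 2 colours do not overlap, as the rule for naming required, and the gap is wider for the rises.

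The 12 top-ranked falls were smaller, with log2 fold changes from -2.63 to -1.87, or 3.66-fold to 6.2-fold lower. At the top was chr1:196435845-196436045, with 50.6, 74.5 and 82.1 CPM in GM and 20.1, 6.45 and 10.9 CPM in GMT (log2 fold change -2.63 ± 0.53, edgeR adjusted p = 0.00121). Gata4 alone gave 59.5 ± 19.4 CPM there and the control 19.9 ± 2.18 CPM, so GM was near the level of G. GMT replicate 1 lay within the range of the control libraries and the other 2 GMT libraries below it. At chr3:105721047-105721252, ranked 3, the GM libraries had 105, 102 and 155 CPM and the GMT libraries 16.1, 23.2 and 31.7 CPM (log2 fold change -2.25 ± 0.49, edgeR adjusted p = 0.00206). That region had 147 ± 29 CPM in G, 27.8 ± 4.2 CPM in the control and 3.73 ± 3.8 CPM in T.

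At chr11:26451581-26451924, ranked 4, the GM libraries had 78.9, 59.6 and 114 CPM and the GMT libraries 12, 18.1 and 20.8 CPM (log2 fold change -2.22 ± 0.45, edgeR adjusted p = 0.00121). The levels in G and GT were 96.8 ± 10.5 and 70.2 ± 54.2 CPM, and those in M, T and MT 27.4 ± 5.14, 8.4 ± 5.2 and 16.4 ± 6.11 CPM. At chr5:107876951-107877176, ranked 12, levels were 67.1, 57.1 and 109 CPM in GM and 20.1, 23.2 and 19.8 CPM in GMT (log2 fold change -1.87 ± 0.47, edgeR adjusted p = 0.00657). This region stood at 190 ± 66.2 CPM in G and at 6.78 ± 3.19, 5.08 ± 2.98 and 9.12 ± 0.61 CPM in M, T and MT, below the 23.5 ± 7.17 CPM of the control. The GMT mean of 21 ± 1.89 CPM was near that of the control.

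Of the 12 named falls, 7 were called higher in G than in the control (9.61% of all regions were). None was called higher in M (9.67% of all), and 6 were called lower in T (10.6% of all). The limit on the mean level over all 24 libraries also favours falls that were high in groups other than GM. The other 8 were chr15:66629417-66629622, chr17:21612274-21612632, chr9:78569061-78569262, chr12:82942051-82942549, chr1:143338502-143339072, chr13:75001337-75001572, chr15:36960866-36961278 and chr9:59385900-59386131. Calls at 7 of the 12 were lost when 1 library was left out (edgeR adjusted p in parentheses). Leaving out GMT replicate 2 ended the calls at chr17:21612274-21612632 (0.119), chr9:78569061-78569262 (0.0674), chr12:82942051-82942549 (0.0508), chr1:143338502-143339072 (0.231) and chr15:36960866-36961278 (0.0691). Leaving out GMT replicate 3 ended those at chr17:21612274-21612632 (0.0603), chr12:82942051-82942549 (0.0582), chr1:143338502-143339072 (0.192), chr15:36960866-36961278 (0.106) and chr9:59385900-59386131 (0.0689). Without GM replicate 3 it was chr17:21612274-21612632 (0.116), chr1:143338502-143339072 (0.0857), chr13:75001337-75001572 (0.0572) and chr15:36960866-36961278 (0.0961), and without GM replicates 1 or 2 chr1:143338502-143339072 (0.0507 and 0.0576). No named rise lost its call in these fits.

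Regions that Tbx5 opened by itself were then followed in GMT against GM. A region is called opened by a factor where it was higher in cells with that factor alone than in the dsRed control, and closed where it was lower. The control lacked the inhibitors, so these lists hold factor and inhibitors together. They come from libraries that are in neither GM nor GMT. Tbx5 alone opened 2977 regions (14.5% of those tested) and closed 2176 (10.6%). Of the regions it opened, 1693 (56.9%) rose when Tbx5 was added to Gata4 and Mef2c and 1 fell, against 12% and 1.7% of all regions. Their median log2 fold change in GMT over GM was 1.74, with quartiles of 1.10 and 2.36, and 95.4% were above 0, against 47.3% of all regions.

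The other 1283 regions opened by Tbx5 alone passed the test in neither direction. Their median log2 fold change was 1.00, and their median level was 10.8 CPM in GM and 22.4 CPM in GMT. Seen from the other side, 68.6% of the 2467 rises were opened by Tbx5 alone, against 14.5% of all regions. At the rises the median level was 8.51 CPM in the control, 9.64 in G, 8.77 in M and 8.89 in GM, and 42.7 in T, 25.9 in GT, 34 in MT and 40.7 in GMT. All groups without Tbx5 thus had similar low levels and all groups with it higher ones. The list was picked on GM and GMT, so only the other groups were free to differ from this order. The GT median was 33.1 CPM without GT replicate 1.

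The share of a library's counts over all tested regions that lay in those opened by Tbx5 alone gives 1 value for each library. It was 6.47%, 5.92% and 5.8% in GM replicates 1 to 3 and 10.9%, 17.5% and 15.6% in GMT replicates 1 to 3, each with a 95% Wilson interval within 0.128 percentage points, which covers counting error only. The lowest GMT library, replicate 1, was still above all GM libraries, and the groups did not overlap. G had 6.23 ± 0.514% (SD, n = 3) and M 5.94 ± 0.112%, near GM with 6.06 ± 0.356%, and MT had 14.2 ± 1.56%, near GMT with 14.7 ± 3.38%. GT had 14.6% and 12.6% in replicates 2 and 3 but 6.45% in replicate 1, within the range of the G libraries. The count of Tbx5-opened regions that rose was 899 without GMT replicate 2, 987 without GM replicate 3 and 1065 without GM replicate 1. Without the shallowest library of each group it was 1636.

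**Figure D3:**
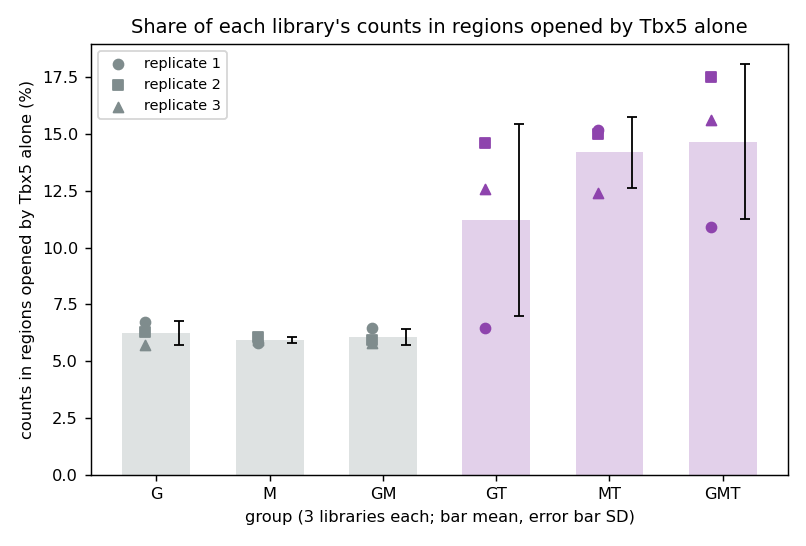
The y axis is the percentage of a library's counts in the 2977 regions that Tbx5 alone opened, for 6 groups whose libraries were not used to choose those regions; symbols are libraries, bars means and error bars SD over 3 libraries. Groups with Tbx5 are purple and lie above the grey groups without it, except GT replicate 1 at 6.45%.

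Regions that Tbx5 closed by itself moved less. Of these 2176 regions 104 fell (4.78%, against 1.7% of all regions) and 2 rose. Their median log2 fold change was -0.50, and 15.8% were above 0. The share of counts in them was 10.5 ± 1.88% in GM and 8 ± 2.27% in GMT, a difference within the spread between libraries. In median level these regions stood at 49.7 CPM in the control, 33.8 in GM, 23.5 in GMT and 13.1 in T. Leaving out GMT replicates 1, 2 or 3 gave 249, 19 and 24 that fell, and leaving out GM replicate 3 gave 22. It was 67 and 167 without T replicates 2 and 3, 61 and 69 without control replicates 2 and 3, and 163 without GT replicate 1. Loess offsets gave 184, a minimum count of 30 gave 51 and thinned counts gave 17.

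Some regions opened by Gata4 alone fell when Tbx5 was added. Of 1970 such regions (9.61% of those tested), 84 fell (4.26%, against 1.7% of all) and 125 rose (6.35%, against 12%). The median log2 fold change of the list was -0.24. Among the 348 falls, 24.1% were opened by Gata4 alone, 11.2% by Mef2c alone (9.67% of all regions) and 0.287% by Tbx5 alone. The count of Gata4-opened regions that fell was 54 and 19 when GM replicates 1 or 3 were left out, 24 and 34 for GMT replicates 2 or 3, and 136 for GT replicate 1. It was 52 and 44 without G replicates 1 and 3, and 50 and 40 without control replicates 2 and 3. In each of the 24 alternative fits where it was read out, the share of Gata4-opened regions that fell was above the share of all regions. The factor was at least 1.55. DESeq2 was not among these fits.

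The Gata4-opened regions were also divided by their state in Tbx5 alone, a division in which both lists share the control libraries. Of the 1713 that Tbx5 alone did not change, 78 fell (4.55%), 37 rose (2.16%), and the median log2 fold change was -0.34. Of the 207 opened by Gata4 and by Tbx5, 88 rose (42.5%) and none fell, with a median of 1.15. Of the 50 opened by Gata4 and closed by Tbx5, 6 fell (12%) and none rose, with a median of -0.62. The median level of the 1713 regions was 20.6 CPM in GM and 17.6 in GMT, and 26 in GT, or 20.2 without GT replicate 1. It was 35.8 CPM in G and 8.22 in the control, the groups that chose the list. The share of counts in all Gata4-opened regions was 6.32 ± 1.51% in GM and 6.27 ± 1.69% in GMT, so the sum over the list did not differ beyond the spread between libraries.

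Few Mef2c-opened regions fell. Of 1982 such regions 39 fell (1.97%, near the 1.7% of all regions) and 96 rose (4.84%). Where Mef2c and Tbx5 alone both opened a region, 57 of 152 rose (37.5%) with a median log2 fold change of 1.06, and where Mef2c opened and Tbx5 closed it, 10 of 68 fell (14.7%). The share of counts in Mef2c-opened regions was 6.2 ± 0.57% in GM and 6.22 ± 0.936% in GMT. Regions closed by Gata4 alone (1243, 6.07%) and by Mef2c alone (1326, 6.47%) had medians of -0.06 and -0.13, whose sign changed under some of the alternative fits, as did that of the Mef2c-opened list at -0.15. In them 90 (7.24%) and 117 (8.82%) regions rose, against 12% of all, and 14 (1.13%) and 30 (2.26%) fell, against 1.7% of all. The 640 regions that Mef2c closed and Tbx5 alone did not change rose in 88 cases (13.8%), with a median log2 fold change of 0.36. The 12% of all regions includes those opened by Tbx5 alone, which this list leaves out. Of the 12939 regions that neither Mef2c nor Tbx5 alone changed, 4.98% rose, with a median of -0.13. The difference between these 2 lists, which share the control libraries, was not tested.

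**Figure D4:**
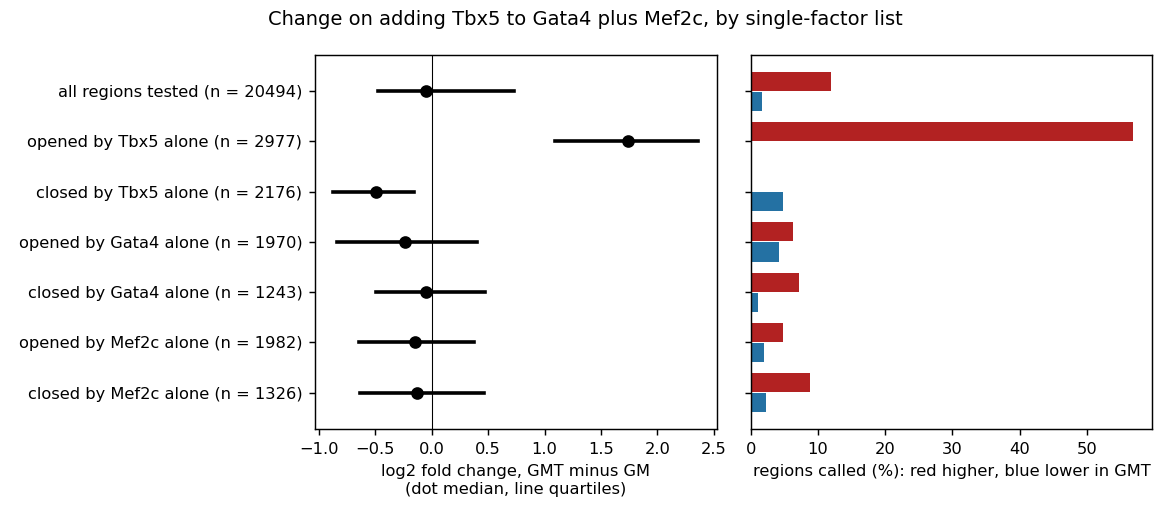
The left panel gives, for all regions and for each list of regions opened or closed by 1 factor against the control, the median (dot) and quartiles (line) of the log2 fold change of GMT over GM. The right panel gives the percentage of each list called higher (red) or lower (blue) in GMT; Tbx5-opened regions have 56.9% higher, and the lists closed by Tbx5 and opened by Gata4 have the largest blue bars, at 4.78% and 4.26%.

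The same step was measured in 2 simpler settings that share no library with GMT or GM, Tbx5 added to Gata4 (GT over G) and to Mef2c (MT over M). Most rises moved the same way in both. In MT over M, 2129 regions were higher (10.4%) and 424 lower (2.07%). Of the 2467 rises, 1405 (57% of the list, and 66% of the regions higher in MT over M) were also called higher there and none lower. Their log2 fold change in MT over M had a median of 1.78, and 98% were above 0, against 49.8% of all regions. In GT over G, 604 regions were higher (2.95%) and 8 lower (0.039%), and 530 of the rises (21.5% of the list, 87.7% of the other) were called there, with a median of 1.31.

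The GT over G list depended on GT replicate 1. Without it 1860 regions were higher and 581 lower in GT over G. In that fit GMT over GM had 2882 rises, and 1503 of them (52.2%) were called higher in GT over G, with a median of 1.63. The number called in GT over G was 612 with all libraries, 112 without G replicate 1, 1 without G replicate 3, 0 without GT replicate 2 and 199 without GT replicate 3. With all libraries 2814 regions had an unadjusted p under 0.05 there. MT over M had 2553 called, and 1246 without M replicate 1, 1282 without M replicate 2, 1683 without MT replicate 1 and 1531 without MT replicate 2.

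Of 20494 regions tested, 417 were called higher in all 3 additions of Tbx5, and none was called lower in all 3. Of the 417, 400 were opened by Tbx5 alone, as were 14.5% of all regions. Without GT replicate 1, 1095 were called higher in all 3, of which 988 were opened by Tbx5 alone, and 9 regions were called lower in all 3. The 3 with the largest mean change were chr17:73371686-73372265, chr2:18752751-18752960 and chr16:24367243-24367686. At chr16:24367243-24367686 the level was 6.42 ± 3.04 CPM in GM and 103 ± 40.8 in GMT, 5.39 ± 2.55 in G and 81.6 ± 68.9 in GT, and 4.9 ± 3.14 in M and 90.1 ± 19.6 in MT. The log2 fold changes were 4.18 ± 0.68, 4.01 ± 0.68 and 4.15 ± 0.70 in the same order of pairs (edgeR adjusted p = 0.000221, 0.00356 and 0.000158). The GMT, GT and MT libraries overlapped in level there, and GT replicate 1, at 3.79 CPM, was as low as the G libraries.

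Most falls were called in neither of the other settings. Of the 348 falls, 35 (10.1%) were called lower in MT over M, where 2.07% of all regions were, and 3 (0.862%) in GT over G, where 0.039% were. None was called higher in either. Medians over the falls were -0.48 in MT over M and -0.50 in GT over G, against -1.68 in GMT over GM. The falls were picked on GMT over GM, so their median there leans downwards and smaller medians elsewhere do not show a difference. Without GT replicate 1, 108 of 497 falls (21.7%) were called lower in GT over G, where 2.68% of all regions were. The median over those 497 falls was -0.96 in GT over G and -0.45 in MT over M. At the named fall chr1:196435845-196436045, the log2 fold change was -2.63 ± 0.53 in GMT over GM, -1.02 ± 0.46 in GT over G (edgeR adjusted p = 0.296) and 0.78 ± 0.56 in MT over M (edgeR adjusted p = 0.436). The GT value includes replicate 1. GT replicates 1 to 3 had 54.3, 13.1 and 18.4 CPM there, and G replicates 1 to 3 had 37.2, 72.7 and 68.5 CPM.

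Whether the change on adding Tbx5 differed between both partners and 1 partner was tested as an interaction. No region had an adjusted p below 0.05 in either test with edgeR's quasi-likelihood method, and none with DESeq2. At an unadjusted p under 0.05 there were 749 regions for the change in GMT over GM against that in GT over G (smallest adjusted p = 0.606), and 889 against that in MT over M (smallest adjusted p = 0.43). DESeq2 had 635 and 755. Without GT replicate 1 edgeR had 824 and 1107, again with none called. The median SE of these differences was 0.7 and 0.71 on the log2 scale. At the rises, which were picked on GMT over GM and so lean upwards, the median difference was 0.81 against GT over G and 0.39 against MT over M. The 0.81 includes GT replicate 1 and was not computed without it. In the fit without that library, the median of GT over G was 1.63 at the 2882 rises of that fit. With all libraries it was 1.31 at the 2467 rises. Among the named regions the interaction of largest size was at chr1:196435845-196436045, -3.41 against MT over M (edgeR adjusted p = 0.49).

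**Figure D5:**
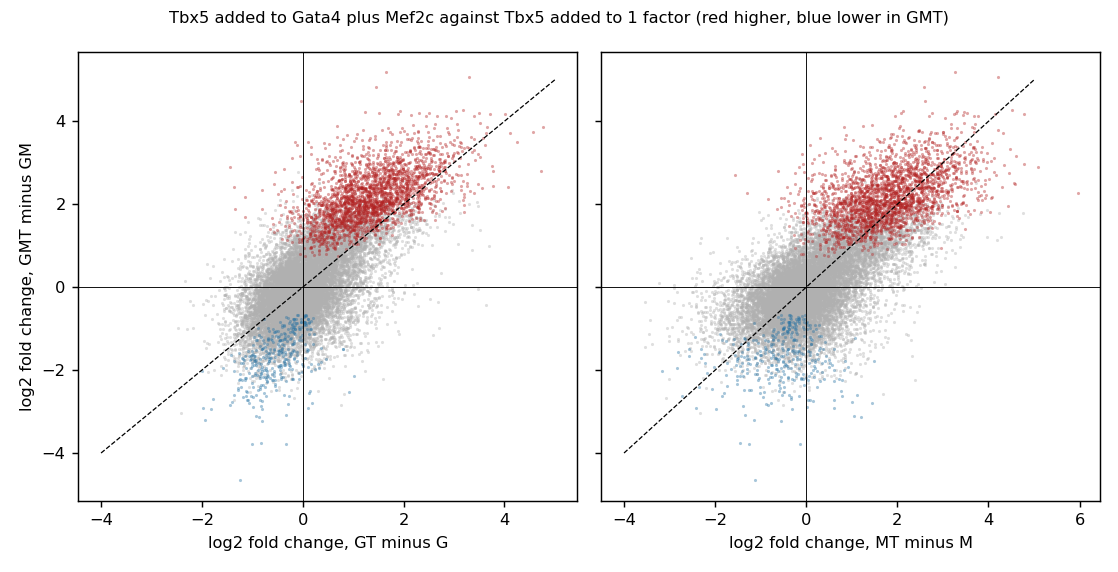
The y axis is the log2 fold change of GMT over GM and the x axis that of GT over G (left) or MT over M (right), 1 point for each of 20494 regions, with the dashed line at equal change. Red points (regions higher in GMT) lie right of 0 for 97% in the left panel and 98% in the right, mostly above the line in the left panel. Blue points (lower in GMT) lie nearer to 0 on the x axis than on the y axis. Both colours were picked on the y axis, so they lean away from 0 on it. The left panel includes GT replicate 1.

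Across all regions tested, the log2 fold change of GMT over GM had a Pearson correlation of 0.71 with that of GT over G (0.714 without GT replicate 1) and 0.714 with that of MT over M. These describe 20494 regions that are not independent of each other and share their mean level and width. On the list opened by Tbx5 alone, the median log2 fold change was 1.74 in GMT over GM, 1.68 in MT over M and 1.17 in GT over G, and without GT replicate 1 it was 1.73, 1.67 and 1.5.

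Outside the regions that Tbx5 opened alone, 774 regions rose in GMT over GM. Of these, 258 (33.3%) were called higher in MT over M, where 10.4% of all regions were, and 51 (6.59%) in GT over G, where 2.95% were, and 482 were called in neither. In the fit without GT replicate 1 the list had 924 regions, of which 326 (35.3%) were called in MT over M, 266 (28.8%) in GT over G (8.59% of all regions there) and 439 in neither. Over the 774 regions the median level was 9.37 CPM in the control, 9.3 in GM, 18.4 in T, 21.3 in GT, 24.5 in MT and 36.7 in GMT. Without GT replicate 1 the GT median was 25.7 CPM. The list was picked for a high level in GMT and for missing the threshold in T, and no difference between those groups was tested here.

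Rises and falls also differed in width and spacing, which the comparison did not use. The rises had a median width of 330 bp (quartiles 256 and 432) and the falls 243.5 bp (206 and 325.5), against 261 bp over all regions tested. Among regions of 201 bp 3.36% rose, and the share was 6.79% from 202 to 250 bp, 12.4% to 300 bp, 15.7% to 400 bp, 21.5% to 500 bp and 26.8% above. The share that fell went from 1.89% to 0.962% over the same classes. The median level also rose with width, from 3.76 to 5.45 log2 CPM, and so did the share opened by Tbx5 alone, from 6.35% to 28%. The part of level in this was not tested. Per kilobase, the rises had a median of 26.7 CPM in GM and 123 in GMT, against 79.6 and 92.6 over all regions. The falls had 145 CPM per kilobase in GM and 46.3 in GMT. Both lists were picked on these 2 groups. In the control, which is in neither of these groups, the medians were 26.1 CPM per kilobase at the rises, 93.1 at the falls and 70.5 over all regions. The mean Spearman correlation with the control was 0.688, 0.815 and 0.74 for GM replicates 1 to 3. The order in the control is therefore not independent of a choice made on GM.

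Rising regions lay near other rising regions. Each rise was paired with every tested region within 2 kb. A region near several rises was counted once for each, and a pair in which both regions rose from each end. In 304 of these 656 pairings (46.3%) the neighbour also rose, against 14.2% of such pairings over all tested regions. Within 10 kb the share was 33.6% against 15%, and within 50 kb 23.4% against 14%. Only 1 region within 2 kb of a rise fell. For the falls, the neighbour also fell in 4 of 52 pairings within 2 kb, counted in the same way (7.69%, against 1.12% of all pairings). Neighbouring regions can be parts of 1 accessible stretch and are not independent. By chromosome, the share of regions that rose ran from 9.82% on chromosome 10 to 14.5% on chromosome 4 and was 11.8% on the X chromosome.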

How the data were processed

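ATAC-seq libraries were made from 50000 unsorted cells with 12 PCR cycles and 100 bp paired reads, per the labels. Bowtie2, Picard, featureCounts and mm9 stand in the submitters' processing notes; versions, the definition of regions and read filters are not given in the sources used here. The authors deposited raw counts per region and library, not normalised. The table has 24 columns; the 3 samples given dsRed and inhibitors are not analysed here. Totals were between 241394 and 1704896. The precision of each value is limited by these totals.

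Counts were analysed with edgeR 4.0.16 (R 4.3.3): filterByExpr (minimum count 10, total 15), TMM, 8 groups in 1 negative binomial fit with 16 residual degrees of freedom, quasi-likelihood tests, Benjamini-Hochberg adjustment within each comparison. SE is the log2 fold change divided by the root of F. CPM values use TMM library sizes; log2 CPM used a prior count of 2. The script was tested on simulated data. Named regions were 12 rises and 12 falls at the ends of the ranking by log2 fold change, at or above the median mean level and with groups that do not overlap, and the 3 highest called in all additions of Tbx5. Interactions had no called region to name. The comparison, lists and rules were chosen with earlier results of these data known. Alternatives were RLE, total counts, loess offsets (span 0.3, limma 3.58.1), DESeq2 1.42.0, no filter, a minimum count of 30, only the groups compared, the replicate number as a block, leaving out each library and, added later, leaving out both shallowest libraries and thinning counts. No genome or annotation of mm9 was used here, so regions were not assigned to genes and no sequence was read.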

Additional observations from a re-analysis of the deposited data

How the results depend on the processing

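The direction of GMT over GM was the same for all 24 named regions in every fit where they were read out, and no call at a named rise was lost. They were not read out in fits that left out a library outside GM and GMT, except GT replicate 1. With a minimum count of 30 the numbers called were 1530 in GMT over GM, 392 in GT over G and 1442 in MT over M, with 1032 Tbx5-opened regions that rose and 25 Gata4-opened regions that fell; fewer regions were tested there. With counts thinned to 241394 per library, chosen after the data were examined, they were 956, 105, 998, 624 and 7, with 10853 regions tested, so depth limits these counts. GT over G also moved to 396 with loess offsets and to 0 with only the groups compared; the cause was not tested. Leaving out 1 library at a time gave 1218 to 3498 called in GMT over GM, 0 to 2441 in GT over G, 1246 to 3048 in MT over M, 899 to 1958 Tbx5-opened regions that rose and 19 to 136 Gata4-opened regions that fell. Each range covers the libraries of the groups in that comparison or list, and GT replicate 1. In 24 of 24 alternatives the shares of Tbx5-opened regions that rose, of Tbx5-closed regions that fell and of Gata4-opened regions that fell were above those of all regions. These shares were not read out with DESeq2 or with only the groups compared. They were also not read out in fits without an M, an MT or another GT library. Medians of the lists opened by Tbx5 ran from 1.47 to 1.84, closed by Tbx5 from -0.75 to -0.39 and opened by Gata4 from -0.46 to -0.04; those of the other 3 lists changed sign. Among named falls, calls were also lost at chr1:143338502-143339072 with total counts alone and with the stricter filter (edgeR adjusted p = 0.0536 and 0.0776), at chr15:36960866-36961278 without both shallowest libraries (0.0556), and at 3 regions with thinned counts. With the replicate number as a block, 2740 regions were called in GMT over GM, 2645 in MT over M and 377 in GT over G. Same-numbered GM and GMT libraries had deviations from their group means that correlated at -0.437, -0.377 and -0.04, so the numbers were not taken as pairs, and none of these 6 libraries correlated best with its own number. For G and GT the correlations were 0.21, -0.135 and -0.372, and for M and MT 0.098, -0.033 and 0.156.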
